A study of Mus musculus with 5 samples.

Results

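The 10 genes described here encode the 3 mouse Piwi proteins and 7 proteins that make piRNAs, modify them or act with them in the nucleus: Piwil1, Piwil2, Piwil4, Mov10l1, Mael, Pld6, Pnldc1, Henmt1, Spocd1 and Btbd18. They were taken by name from the 21775 protein-coding genes of the RefSeq table (GRCm38.p6, the assembly of mm10), and all 10 were found in it. For each, every peak that overlapped the gene body or the 10 kb on either side was collected from each library. The data are ChIP-seq peak lists for ZFP541, a zinc finger protein made in male germ cells. Adult C57BL/6 mice gave the testes, from which spermatocytes at the pachytene and diplotene stages were enriched by STA-PUT sedimentation. The groups were Zfp541-/- spermatocytes with 1 ChIP library and wild-type (WT) spermatocytes with 2 ChIP libraries, all made with a rabbit antibody against ZFP541 on chromatin fixed for 10 min in 1% formaldehyde. A further 2 WT input libraries carry no antibody, and their signal was not analysed here. Nothing in the labels says whether the WT replicates came from separate animals, and peak lists hold no expression values from which the purity of the cells could be checked.

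Piwi-interacting RNAs (piRNAs) are small RNAs of the germ line that guide Piwi proteins to transposon RNA, to chromatin and, in meiotic and postmeiotic cells, to other transcripts. A long precursor is transcribed from a piRNA cluster, unwound and cut in cytoplasmic granules near mitochondria, loaded into a Piwi protein, trimmed at its 3′ end and methylated there. Spermatocytes at pachytene produce a large class of piRNAs from clusters that are switched on during meiosis.

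The knockout list held 256 peaks, and the WT lists held 8236 in replicate 1 and 10371 in replicate 2. The lists do not give read depth, and a gene without a peak is therefore not shown to be unbound. Fold enrichment is the authors' value for the summit of a peak over the background of their peak caller, and the control behind that background is not given. It came in steps: 54.5% of all peaks in WT replicate 1 had a fold that was a whole multiple of 0.357, and 63.0% in WT replicate 2 a multiple of 0.336, both within 0.002 of a step. At Zfp541 itself the knockout library had no peak, and the highest WT peaks had folds of 18.6 and 22.2.

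No knockout peak lay in the window of any of the 10 genes, while 7 of the 10 had at least 1 WT peak. Among all protein-coding genes, 0.34% had a knockout peak in such a window and 42.3% had a peak in at least 1 WT library. The knockout peak nearest to a gene of the group was 622 kb from Pnldc1, and the most distant nearest peak was 65431 kb from Spocd1, with a median of 10832 kb over the 10 genes. The windows held 6 peaks in WT replicate 1 and 12 in WT replicate 2. WT replicate 1 had peaks at 5 genes, Pld6, Pnldc1, Henmt1, Spocd1 and Btbd18, against 33.8% of all protein-coding genes. WT replicate 2 had peaks at 7 genes, these 5 and Piwil2 and Mov10l1, against 39.4% of all. Knockout peaks began at a −log10 p of 4.47 and WT peaks at 2.71 in replicate 1 and 2.54 in replicate 2. Of the WT peaks in the windows, 5 of the 6 and 4 of the 12 reached 4.47. The share of all WT peaks that reached it is not given here, so these counts are not read as high or low. The genotypes were not tested against each other, since the knockout has a single library.

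**Figure D1:**
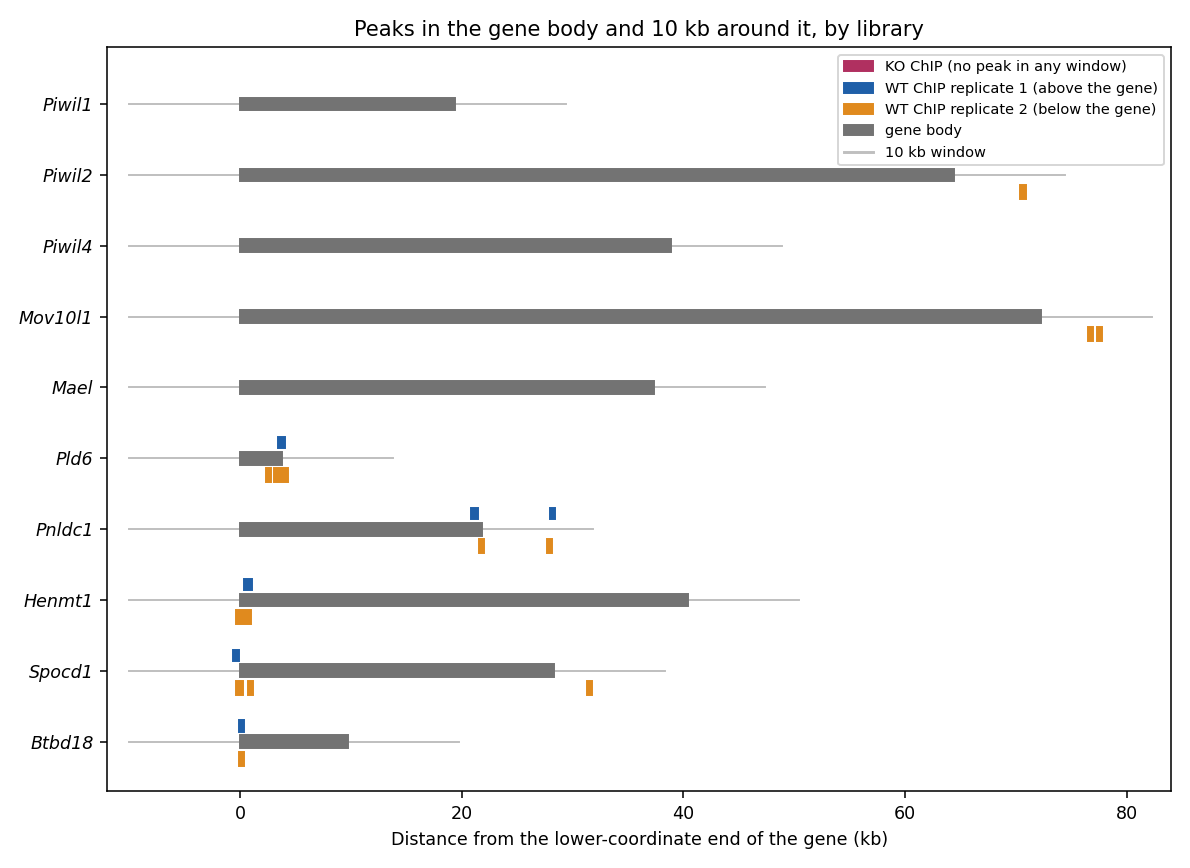
Each row is a gene of the group with its body (dark bar) and the 10 kb around it (thin line), placed by distance in kb from its lower-coordinate end, with peaks drawn above for WT ChIP replicate 1 and below for WT ChIP replicate 2; peaks narrower than the smallest box are drawn wider than they are. No KO ChIP peak falls in any window, and Piwil1, Piwil4 and Mael have no peak in any of the 3 libraries.

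WT peaks that overlapped each other between the replicates by at least 1 bp were found at 5 of the 10 genes, against 29.3% of all protein-coding genes, and at 4 of them the shared peaks lay at an end of the gene itself. Those 4 were Pld6, Henmt1, Spocd1 and Btbd18. Within 1 kb of an annotated start, or of either gene end where the promoter table has no entry, 4 of 10 genes had shared WT peaks against 21.2% of all protein-coding genes, and none had a knockout peak against 0.0321%. Pnldc1 joined these 4 when each WT library was counted alone, giving 5 genes in replicate 1 against 24.2% of all and 5 in replicate 2 against 28.3%. The genes of the group had a median length of 32855 bp against 17219 bp for all protein-coding genes, and a longer gene offers a longer window; the part of length in the counts was not tested. With 10 genes chosen by name, the group's share was set beside the background without a test.

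**Figure D2:**
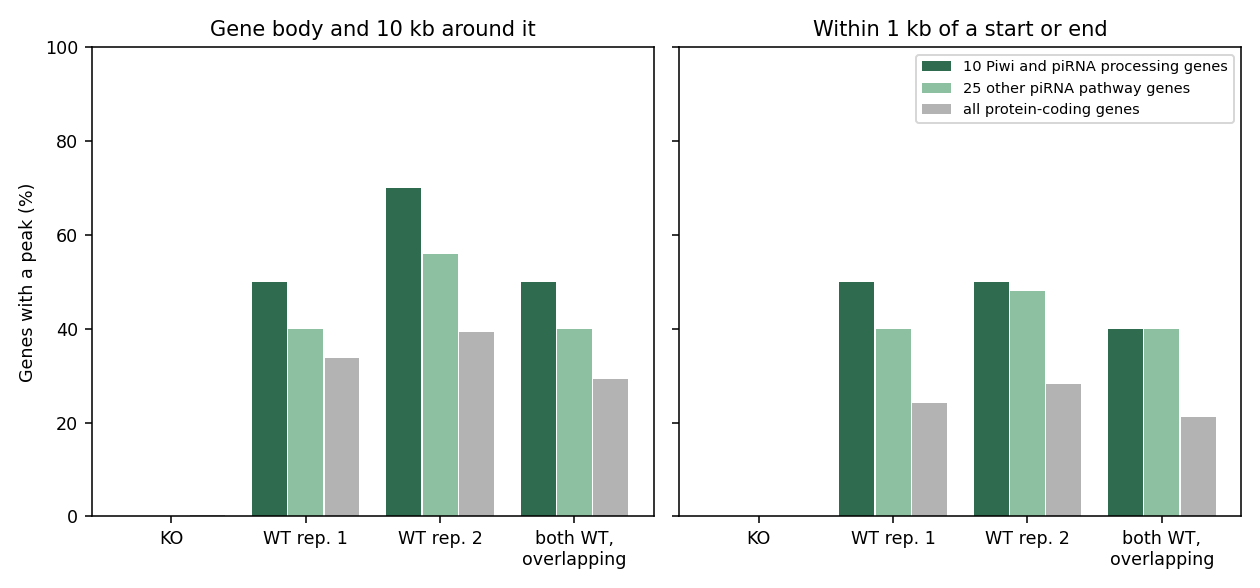
Bars give the percentage of genes with a peak in the KO ChIP library, in each WT ChIP replicate, or with overlapping peaks in both, for the 10 genes of the group, 25 other piRNA pathway genes and all protein-coding genes. In the left panel the group stands at 50% for overlapping WT peaks against 29.3% of all protein-coding genes, and in the right panel at 40% against 21.2%.

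Of the 3 genes for Piwi proteins, none had a peak in WT replicate 1, against 33.8% of all protein-coding genes, and 1 had a peak in WT replicate 2, against 39.4%. None had a shared WT peak, against 29.3%, and with 3 genes these counts are not read as a difference. Piwil1 encodes MIWI, the Piwi protein that carries pachytene piRNAs (chromosome 5, 128736071 to 128755474), and it had no peak in any library. Its nearest WT peaks were 129 kb away in replicate 1 and 134 kb away in replicate 2. Piwil4 encodes MIWI2, the nuclear Piwi protein of fetal germ cells (chromosome 9, 14701776 to 14740672), and it too had no peak. The nearest were 43.7 kb and 235 kb away. Piwil2 encodes MILI, which acts from fetal germ cells to spermatocytes (chromosome 14, 70372477 to 70436898). It had no knockout peak and none in WT replicate 1, and its only peak, in WT replicate 2, had a fold of 3.36 and a −log10 q of 1.48. That summit lay 6400 bp beyond the higher-coordinate end of Piwil2, inside Polr3d, which encodes a subunit of RNA polymerase III. In these lists no peak lay in the body of a Piwi gene.

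Mov10l1 and Mael also lacked peaks of their own. Mov10l1 encodes the RNA helicase that feeds piRNA precursors into processing (chromosome 15, 88982891 to 89055152). It had no peak in the knockout or in WT replicate 1, and WT replicate 2 had 2 peaks, both with a fold of 3.02 and a −log10 q of 0.858. These did not reach a q-value of 0.05, and their summits lay 4260 bp and 5390 bp past the gene, inside Panx2, a pannexin channel gene. Mael encodes a protein of the piRNA granules needed for transposon silencing (chromosome 1, 166201385 to 166238744), and no library had a peak there. The nearest WT peaks were 70.2 kb away in replicate 1 and 15.2 kb in replicate 2.

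Peaks at genes with a shared WT peak at their own end were compared base by base with the promoter windows that RefSeq (GRCm38.p6) gives. This was possible for 3 of the 4 genes. The windows run from 250 bases before an annotated start to 50 after. Of the 10 genes, 7 had an entry there, and Piwil2, Spocd1 and Pnldc1 had none. Windows are shown for the 3 genes with both an entry and a shared WT peak, since they hold the sequence on which both replicates called a peak; capitals mark the bases inside the peaks of both WT replicates, on the strand of the gene, 5′ to 3′. For Pld6 the window is that of the outer of 2 annotated starts (chr11:59787608-59787907, minus strand), and every one of its 300 bases lay in both peaks. For Henmt1 (chr3:108940307-108940606, plus strand) the first 119 bases did, and for Btbd18 (chr2:84658829-84659128, plus strand) the last 122.
Pld6: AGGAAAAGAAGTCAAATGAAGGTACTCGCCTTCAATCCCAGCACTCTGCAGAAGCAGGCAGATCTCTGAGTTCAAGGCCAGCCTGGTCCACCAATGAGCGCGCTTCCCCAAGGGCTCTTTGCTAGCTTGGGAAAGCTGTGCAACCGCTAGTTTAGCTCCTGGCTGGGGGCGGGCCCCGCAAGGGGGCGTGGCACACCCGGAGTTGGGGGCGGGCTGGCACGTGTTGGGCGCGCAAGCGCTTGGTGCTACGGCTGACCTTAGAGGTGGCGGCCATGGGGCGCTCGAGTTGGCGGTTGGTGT
Henmt1: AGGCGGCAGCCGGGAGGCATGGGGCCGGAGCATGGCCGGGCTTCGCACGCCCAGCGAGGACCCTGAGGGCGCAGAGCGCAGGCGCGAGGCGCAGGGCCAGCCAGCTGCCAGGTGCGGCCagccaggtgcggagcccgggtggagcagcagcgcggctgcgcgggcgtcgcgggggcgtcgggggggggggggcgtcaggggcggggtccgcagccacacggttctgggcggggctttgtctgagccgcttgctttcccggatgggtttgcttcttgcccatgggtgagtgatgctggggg
Btbd18: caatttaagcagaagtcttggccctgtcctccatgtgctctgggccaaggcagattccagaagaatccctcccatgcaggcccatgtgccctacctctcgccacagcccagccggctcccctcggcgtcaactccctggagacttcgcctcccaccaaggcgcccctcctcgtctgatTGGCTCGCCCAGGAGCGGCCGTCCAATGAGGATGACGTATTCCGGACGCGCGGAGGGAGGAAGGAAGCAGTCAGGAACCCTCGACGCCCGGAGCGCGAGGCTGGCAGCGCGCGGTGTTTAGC

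Promoter windows of protein-coding genes held a median of 13 CpG (interquartile range 4 to 24), and these held 18 at Pld6, 31 at Henmt1 and 23 at Btbd18. Under both peaks lay all 18 CpG of the Pld6 window, 13 of the 31 at Henmt1 and 16 of the 23 at Btbd18. At the inner start of Pld6, 17 of 25 CpG did. Among the genes without a peak at a start, Mael had 24, Mov10l1 20, Piwil1 18 and Piwil4 11 at its outer and 0 at its inner start. The short sequences searched on both strands of the windows were CAACTG and CAACGG, which the MYB family is known to bind, and the E-box CACGTG. None of them overlaps another in these windows, and a match is a string of letters, not a bound site. CACGTG, found in 7.84% of all promoter windows, occurred in 4 of the 9 windows of the 7 genes with an entry: at Pld6 beginning 33 bases before the outer start, at Mael 223 before, at Mov10l1 246 before, and at Piwil1 in 2 places, 179 and 154 before. CAACTG (12.5% of all windows) was found at Piwil1 only, beginning 73 bases before the start, and CAACGG (5.49%) only at the inner start of Pld6, beginning 30 bases before it. The windows of Henmt1 and Btbd18 held none of the 3.

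Pld6 encodes the mitochondrial endonuclease that cuts piRNA precursors (chromosome 11, 59783893 to 59787657). The knockout library had no peak there. In WT replicate 1 a peak of 633 bp (59787275 to 59787907) had a fold of 6.07, a −log10 p of 10.9 and a −log10 q of 7.41. Its summit was 82 bp upstream of the outer start, which is the end of the gene body. WT replicate 2 had a peak of 1326 bp (59786929 to 59788254) that contained all of it, with a summit 45 bp upstream of the same start. The fold of that peak was only 2.6, with a −log10 p of 4.15 and a −log10 q of 1.33. The replicates placed summits 37 bp apart, but the peaks differed in rank within their lists. Of all peaks in the list, 72.3% had a lower fold in replicate 1 and 4.1% in replicate 2. A second peak in replicate 2 (59786266 to 59786546) lay inside the gene with a fold of 3.36, the highest of that replicate at Pld6. When peaks were held to the lowest −log10 p of the knockout list, Pld6 no longer had a shared peak.

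Henmt1 encodes the methyltransferase that protects the 3′ ends of mature piRNAs (chromosome 3, 108939454 to 108979885). It had no knockout peak. The peak of WT replicate 1 spanned 693 bp (108939849 to 108940541) with a fold of 5.0, a −log10 p of 8.09 and a −log10 q of 4.75. The peak of WT replicate 2 spanned 1297 bp (108939129 to 108940425) with a fold of 6.04, a −log10 p of 11.3 and a −log10 q of 7.87. Their summits lay 251 bp and 502 bp upstream of the start in the promoter table, 251 bp from each other and inside the gene body, which begins further out. Ranked within its own list, the replicate 2 peak was the higher here, the reverse of Pld6. Of all peaks in the list, 60.7% had a lower fold in replicate 1 and 73.9% in replicate 2.

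**Figure D3:**
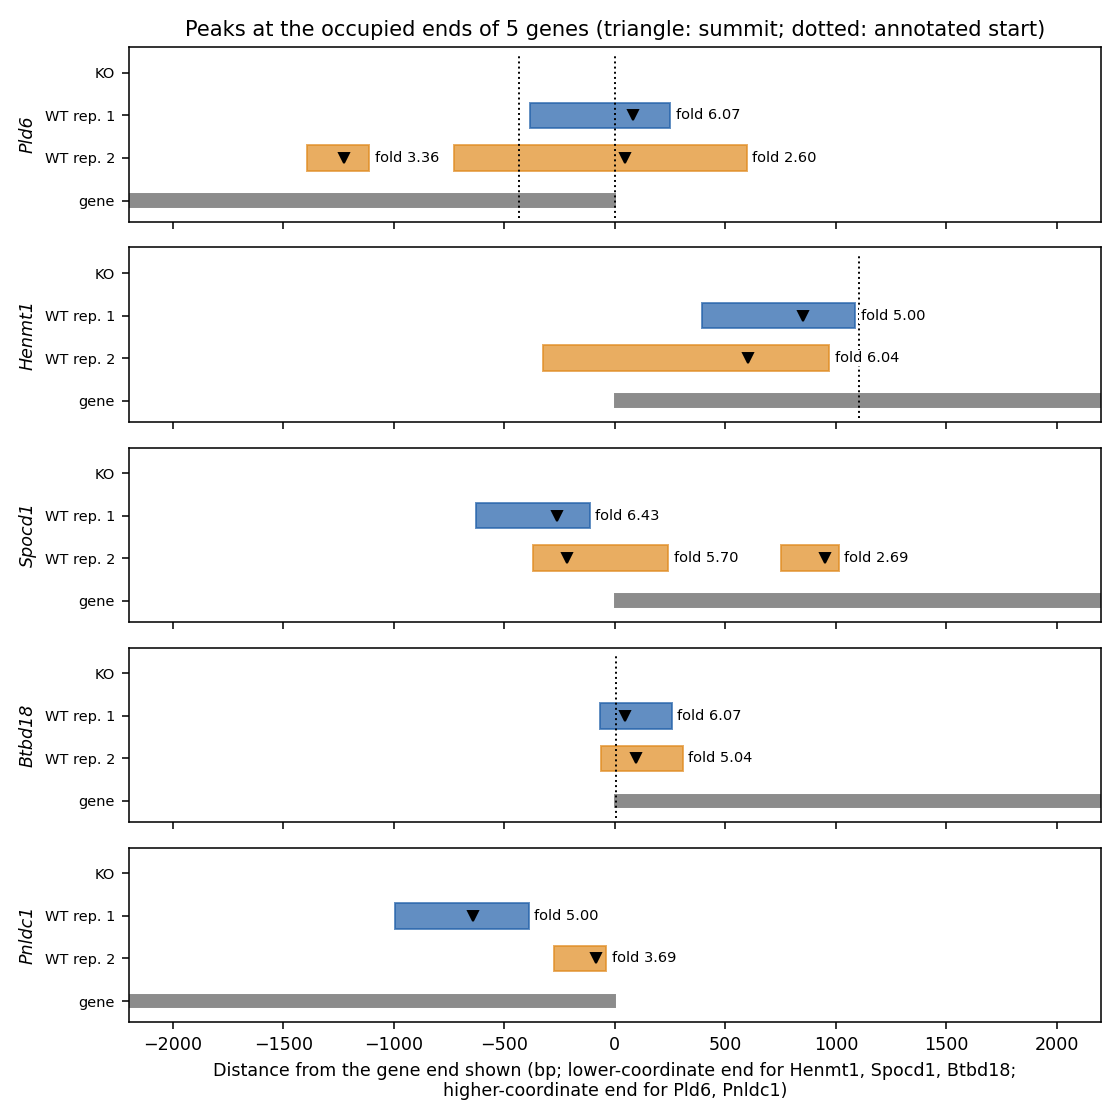
Peaks of the KO ChIP library and the 2 WT ChIP replicates are drawn as boxes to scale by distance in bp from a gene end, with summits as triangles, annotated starts as dotted lines and the fold printed beside each box. No KO row holds a peak; WT peaks overlap at Pld6, Henmt1, Spocd1 and Btbd18, and the WT peaks at Pnldc1 lie 114 bp apart.

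Pnldc1 encodes the exonuclease that trims piRNA 3′ ends (chromosome 17, 12888723 to 12910580). The knockout library had no peak there, and each WT replicate had 1 peak inside the gene near its higher-coordinate end. In replicate 1 that peak (12909587 to 12910191) had a fold of 5.0 and a −log10 q of 4.75, with its summit 643 bp from the end. In replicate 2 it (12910306 to 12910540) had a fold of 3.69 and a −log10 q of 2.15, with its summit 85 bp from the end. The peaks were 114 bp apart and so did not count as shared, although each stood at the same end. The shared WT region in the Pnldc1 window was another one, 450 bp wide, at 12916397 to 12916846. Its peaks had folds of 2.86 and 3.36, overlapped by 44 bp, and had their summits in the bodies of both Mrpl18, a mitochondrial ribosomal protein gene, and Tcp1, a chaperonin subunit gene. The replicate 1 peak had a −log10 q of 0.437, so this region was lost at a −log10 q of at least 1.3.

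Spocd1 and Btbd18 act in the nucleus. SPOCD1 works with MIWI2 in fetal male germ cells, where it is needed for DNA methylation of transposons. The gene (chromosome 4, 129928767 to 129957115) had no knockout peak. It had the highest fold of the group in WT replicate 1, 6.43, in a peak of 517 bp (129928138 to 129928654) with a −log10 p of 11.9 and a −log10 q of 8.36. The peak of WT replicate 2 spanned 612 bp (129928397 to 129929008) with a fold of 5.70, a −log10 p of 10.3 and a −log10 q of 6.96. The summits were 262 bp and 218 bp outside the lower-coordinate end of the gene and 44 bp apart. WT replicate 2 had 2 more peaks, a peak 950 bp inside that end with a fold of 2.69 and a −log10 q of 0.314, and another 3043 bp past the opposite end with a fold of 3.36.

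BTBD18 is a nuclear protein needed for the transcription of pachytene piRNA precursors. Btbd18 (chromosome 2, 84659072 to 84668789) had no knockout peak and 1 peak in each WT replicate, and these matched more closely in extent than the other shared peaks of the group. In replicate 1 the peak spanned 328 bp (84659003 to 84659330) with a fold of 6.07, a −log10 p of 10.9 and a −log10 q of 7.41. In replicate 2 it spanned 374 bp (84659007 to 84659380) with a fold of 5.04, a −log10 p of 8.47 and a −log10 q of 5.23. The summits were 40 bp and 88 bp downstream of the annotated start, and 98.8% of the replicate 1 peak and 86.6% of the replicate 2 peak were common to both. Ctnnd1, which encodes the p120 catenin, lies 95 bp from Btbd18, and the summits were 142 bp and 190 bp from a start of Ctnnd1. The peak can therefore not be assigned to Btbd18 alone. Under a reciprocal overlap of at least 50%, Btbd18 was the 1 gene of the group that still had a shared peak. At Pld6, Henmt1 and Spocd1 the common part was 47.7%, 44.5% and 42.2% of the replicate 2 peak. The share of all protein-coding genes that kept a shared peak under this rule is not given here, so the count does not set Btbd18 apart from them.

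Of the 10 genes, 3 had no peak, and the rest were ranked by their highest fold among all protein-coding genes with a peak in the same library. The highest fold at a gene ranged from 5.0 to 6.43 over the 5 genes with a peak in WT replicate 1, with a median of 6.07, against a median of 5.36 over the 7370 protein-coding genes with a peak in their window. In WT replicate 2 it ranged from 3.02 to 6.04 over 7 genes, with a median of 3.69 against 5.37 over 8576 genes, whose lower quartile was also 3.69. In replicate 1, 61.9% of these genes had a lower highest fold than Spocd1, 57.8% than Pld6 and Btbd18, and 43.0% than Henmt1 and Pnldc1. In replicate 2 the shares were 57.5% at Henmt1, 53.7% at Spocd1 and 45.6% at Btbd18, and they were lower at the other 4 genes, with 21.4% at Pnldc1, 13.9% at Piwil2 and Pld6 and 6.98% at Mov10l1. In replicate 1 the fold at Spocd1 was 18 steps and those at Pld6 and Btbd18 17 steps, so these 3 genes were at most 1 step apart, the smallest difference that values on this grid can show. Of the 10 genes, Spocd1 and Btbd18 alone kept a shared peak when a minimum −log10 q of 5 was set, and none did with a minimum of 10. The median −log10 q of all peaks was 3.71 in WT replicate 1 and 2.86 in WT replicate 2. The share of all protein-coding genes that kept a shared peak at these minimums is not given here.

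**Figure D4:**
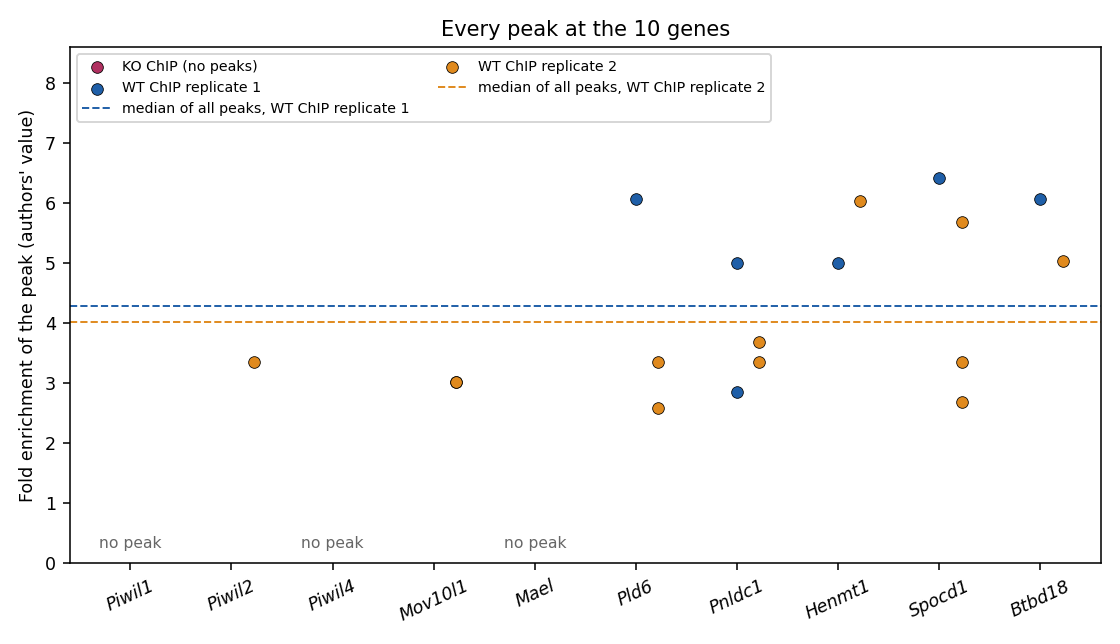
Each point is a peak in the window of a gene of the group, at the fold enrichment the authors' peak caller gave it, with dashed lines at the median fold of all peaks in WT ChIP replicate 1 (4.29) and replicate 2 (4.03). The KO ChIP library contributes no point, the 2 peaks at Mov10l1 share 1 value, and the highest points are 6.43 at Spocd1 in replicate 1 and 6.04 at Henmt1 in replicate 2.

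The 25 other genes of the piRNA pathway were listed with earlier results of these data known. Of these, 10 had shared WT peaks in their windows, against 29.3% of all protein-coding genes. Within 1 kb of a start, 10 had them, against 21.2%, with either gene end used where the promoter table has no entry. None of the 25 had a knockout peak in its window, against 0.34%. Of the 9 Tudor domain genes in that list, whose proteins bind methylated Piwi proteins, 5 had shared WT peaks in their windows, against the same 29.3%; neither list was tested. Folds of these other genes are those of shared WT peaks within 1 kb of a start, while the group's are the highest in the whole window. Tex15 and Mybl1 have no entry in the promoter table, so their peaks lay near a gene end that may not be the start. In both replicates, Tex15, Kif17 and Fkbp6 had higher folds than any gene of the group. Tex15, whose product takes part in transposon silencing in fetal male germ cells, had 10.0 and 12.2 in replicates 1 and 2. The kinesin gene Kif17 had 10.0 and 11.7, and Fkbp6, a cochaperone gene, 7.49 and 7.58. The Tudor domain gene Tdrd5 had 8.57 and 4.70, Tdrd1 4.64 and 4.03, and Tdrd7 3.57 and 4.48. Tdrkh, whose product assists trimming by PNLDC1, had 2.40 and 6.38, with a −log10 q of only 0.241 in replicate 1. Mybl1, which encodes A-MYB, the activator of pachytene piRNA clusters, had 4.64 and 6.38. Tdrd5 was also above the group's highest fold in replicate 1, 6.43, and Tdrkh and Mybl1 above that in replicate 2, 6.04. In replicate 2 the difference was only 1 step of 0.336, the smallest that values on this grid can show. Ddx4, Exd1, Mov10 and Tdrd6 had a peak in WT replicate 2 only, as Piwil2 and Mov10l1 did in the group. The list of replicate 2 is the longer one, with 10371 peaks against 8236. Of all protein-coding genes, 33.8% had a peak in replicate 1, 39.4% in replicate 2 and 42.3% in at least 1 of them.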

How the data were processed

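Peak lists of 3 ChIP-seq libraries were used: knockout ChIP (1) and WT ChIP (replicates 1 and 2). The submitters' processing notes name MACS2 2.2.6, Bowtie2 2.3.5, cutadapt 2.6, deepTools 3.5.0, SAMtools 1.10 and Picard, and the build mm10. Which settings, control and threshold the peak calls used is not given in the sources used here. Replicates were called separately, as each list is of 1 library. Per peak, the authors deposited the values of their peak caller: a fold enrichment over its background (a ratio), a −log10 p, a −log10 q, a summit offset and a score that is the −log10 q times 10 without decimals. The lists reach past a q-value of 0.05.

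Genes came from RefSeq (GRCm38.p6), without entries before 3 Mb of a chromosome other than Y. A peak belonged to a gene if it overlapped the body or 10 kb around it by at least 1 bp; shared WT peaks overlapped by at least 1 bp, both in the window. Starts came from the RefSeq promoter table, which covers 80.3% of the 21775 protein-coding genes; for the others both gene ends were used. Dnmt3c was matched through a synonym to an entry the table calls a pseudogene. No test was run. The members, lists and rules were chosen with earlier results of these data known. All 10 genes are named, and of the other pathway genes up to 8 with a shared WT peak at a start, by mean percentile of fold; those named with a peak in WT replicate 2 only were chosen after their values were seen. Alternatives covered windows, q-values, overlap rules and each replicate alone. Overlaps and windows were checked on simulated peaks with known places. Tools were Python 3.11.15, matplotlib 3.10.9, pandas 2.3.3 and numpy 2.4.6.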

Additional observations from a re-analysis of the deposited data

How the results depend on the processing

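No knockout peak was found at any of the 10 genes under any window or threshold tried, against 0.34% of all protein-coding genes in the main window. This count could not change. The nearest knockout peak was 622 kb away, beyond every window tried, and a stricter threshold only removes peaks. The count of 5 genes with shared WT peaks, each with 1 region, was 3 with the gene body alone, which left out Spocd1 and Pnldc1. With 1 kb or 5 kb around the body it was 4, without Pnldc1, and with 20 kb it was 5. It was 2 with a minimum −log10 q of 5, 0 with a minimum of 10, and 1 under a reciprocal overlap of 50%. The number of shared regions took the same values. The count of genes was also 3, leaving Henmt1, Spocd1 and Btbd18, when WT peaks were held to the lowest −log10 p of the knockout list. That setting was chosen after seeing the data. The count of 4 genes with a shared WT peak at a start was 2, 0 and 1 at those q-values and that overlap. The 10 other pathway genes were 4, 3 and 6 under the same settings. With a minimum −log10 q of 1.3, 7 of them and 4 genes of the group kept shared WT peaks in their windows. These settings remove peaks or pairs by construction. Shares of all protein-coding genes are given here for the main settings only. The lower counts therefore do not show whether the group fell more than all genes did. Without WT ChIP replicate 1 or without replicate 2, where a peak in the remaining library was enough, the counts ranged from 5 to 7 for the group, 5 in both cases at a start, and 10 to 14 for the other genes; the 7 rests on Piwil2 and Mov10l1, which had peaks in replicate 2 only. The 12 highest folds per gene and replicate were the same in each of the 42 values under other windows; peaks outside a narrower window gave no value. No paired analysis was possible because the knockout has 1 library and no test was made. Depth is unknown, so the lists cannot show that a site is unbound.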
